A study of Mus musculus with 7 samples.

Results

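The 8 genes described here encode transcription factors that steer hematopoietic progenitors toward myeloid fates: Spi1, Cebpa, Cebpb, Cebpe, Irf8, Gfi1, Klf4 and Id2. They were taken by symbol from the gene tables of the count matrices, where all 8 were found among 32285 genes. RNA was counted in single bone marrow cells of mice from 7 libraries, 3 of them labelled B4galt1 KO and 4 labelled WT. B4galt1 encodes a galactosyltransferase of the Golgi that extends the sugar chains of glycoproteins. The labels give the knockout as 129S1/C57Bl/6, B4-/- and the wild type as 129S1/C57Bl/6. No age, sex, promoter or tissue-specific driver is named, and the design text calls the mice full knockouts. All libraries came from flushed tibia and femur marrow after lysis of red cells, sorted as Lineage-, Sca-1+ and cKit+ (LSK) cells, a gate that holds stem cells and multipotent progenitors. Nothing in the labels ties a library to a single animal or to a litter, so the p-values measure the spread between these libraries, which may be technical.

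As background, PU.1 (the product of Spi1) and C/EBPα (Cebpa) open the myeloid program in multipotent progenitors, and the level of PU.1 against other factors biases cells between lymphoid, granulocytic and monocytic paths. Granulocyte and monocyte fates then part: C/EBPε (Cebpe) and the repressor Gfi1 act on the neutrophil side, where C/EBPε is needed for secondary granule genes, while Irf8 and Klf4 act on the monocyte side. C/EBPβ (Cebpb) serves stress granulopoiesis and monocyte survival. Id2 binds E proteins and keeps them from DNA, and is known for its part in innate lymphoid and dendritic cells.

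RefSeq promoter windows (GRCm38.p6, 250 bases upstream of a start) matched 6 of the 8 genes, with 8 windows in all, and those of Irf8 and Gfi1 are shown because these genes stood on opposite sides of the monocyte and granule gates described below. The Irf8 window is chr8:120736108-120736357 on the plus strand and ends at the base before the annotated start of the gene. The Gfi1 window is chr5:107725806-107726055 on the minus strand. Unlike that of Irf8, it lies mostly inside the annotated gene, which starts at 107726036 on that strand. Both windows are written 5′ to 3′ along the gene, with capitals marking matches to any of the motifs searched on both strands.
Irf8: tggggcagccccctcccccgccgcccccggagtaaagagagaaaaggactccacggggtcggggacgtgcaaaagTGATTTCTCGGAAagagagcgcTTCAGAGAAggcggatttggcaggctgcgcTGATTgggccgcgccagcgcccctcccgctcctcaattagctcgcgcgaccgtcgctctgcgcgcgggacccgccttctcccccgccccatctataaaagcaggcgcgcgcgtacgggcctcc
Gfi1: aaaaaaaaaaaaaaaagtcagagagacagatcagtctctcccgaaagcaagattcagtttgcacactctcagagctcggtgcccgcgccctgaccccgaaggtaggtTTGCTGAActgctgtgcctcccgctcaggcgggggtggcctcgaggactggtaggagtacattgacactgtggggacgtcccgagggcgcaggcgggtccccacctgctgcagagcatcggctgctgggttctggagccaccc

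The motifs were chosen after expression values had been seen. AATCA, the core bound by Gfi1, was in 2 windows of these genes, both of Irf8, and in 33.7% of 32851 windows of the genome. TTCNNNGAA, the shape of a gamma-interferon activated site, matched the Irf8 window shown and 7.02% of all windows, and its first match there overlaps the AATCA match on the other strand. TTNCNNAA, a C/EBP dimer shape, matched the Gfi1 window shown, downstream of the annotated start of the gene, and 36.8% of all. GAGGAA, the PU.1 core, matched none of the windows of these genes and 23.3% of all. A match is a run of letters, and binding was not measured here.

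The libraries held 14970791 to 89747946 UMIs (unique transcript tags). A barcode counted as a cell from 1000 UMIs and 500 genes upward, with no more than 10% of its UMIs mitochondrial. That left 3072, 1725 and 6855 cells in KO replicates 1 to 3 and 1244, 1172, 1500 and 8862 in WT replicates 1 to 4. The opening bases of the cell barcodes fell into 2 separate sets, called list B (KO replicate 3 with WT replicate 4) and list A (the other 5 libraries). The first principal component of the summed counts, with 64.2% of the variance, also separated these lists. The labels name a single kit, and what else differed between the lists is not given in the sources used here. Kept barcodes shared by a pair of libraries numbered 68 for KO replicate 3 with WT replicate 4 and at most 2 for other pairs. B4galt1 RNA, as CPM (counts scaled to the same total of UMIs over a library's kept cells), was 51.2, 55.6 and 27.4 in the knockout-labelled and 56.4, 69.2, 56.7 and 34.8 in the wild-type-labelled libraries, with a log2 fold change of -0.14 (adjusted p 0.549 by edgeR, SE 0.12). The labels overlapped in B4galt1 RNA, while within each list every knockout-labelled library was below every wild-type-labelled one. Which part of the gene was deleted is not given, and RNA counted outside it would check nothing, so groups are called by their labels. Kit, which encodes the sorted cKit protein, stood at 167 ± 30.8 and 253 ± 78.5 CPM (SD, n = 3 and n = 4), and Ly6a, which encodes Sca-1, at 33.8 ± 13.1 and 29.4 ± 11.5 CPM. Summed markers of other cell types, all with UMIs and all overlapping between the labels, ran from 19.95 to 50.1 CPM for 4 B cell genes, 0.29 to 44.1 for 2 plasma cell genes, 0.406 to 7.54 for 4 macrophage genes, 18.3 to 180.3 for 4 red cell genes and 78.9 to 232 for 4 endothelial and stromal genes.

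Several of the 8 factors differed between the barcode lists by far more than between the labels. Cebpb stood at 84.8, 62.7, 51.5, 32.6 and 36.8 CPM in the list A libraries (KO replicates first) and at 1.7 and 1.6 CPM in list B. The mean of list A was 32.5 times that of list B, and 0.112% of the 15149 genes tested had a lower ratio of list B to list A. Klf4 was at 36.5, 113, 69.4, 81.7 and 77.5 CPM in list A and at 1.0 and 8.72 CPM in list B, a ratio of the means of 15.6. Both genes were thus near 0 in list B, and Klf4 there was lower in the knockout-labelled library. For Gfi1 the ratio was 6.46 (27.2 ± 8.79 CPM, SD, n = 5, against 3.86 and 4.55), and for Cebpa 2.52 (17.5 ± 5.84 against 8.41 and 5.52). Spi1 went the other way, at 104 ± 18.2 CPM in list A and 189.8 and 171 in list B. The lists did not overlap for these 5 genes, and they did not overlap for 63.7% of all genes tested either, while 0.297% of genes were over 8-fold lower in list B on log2(CPM + 1). Irf8, Cebpe and Id2 overlapped between the lists. The share of ribosomal protein genes among the UMIs was 12.8% to 20.6% in list A libraries but 31.6% and 31.7% in those of list B, and their part in these differences was not tested. The list difference of Cebpb held within gates: in the stem gate it was at 59.2, 41.5, 45, 29.8 and 35.1 CPM in list A and 2.16 and 1.71 in list B.

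**Figure D1:**
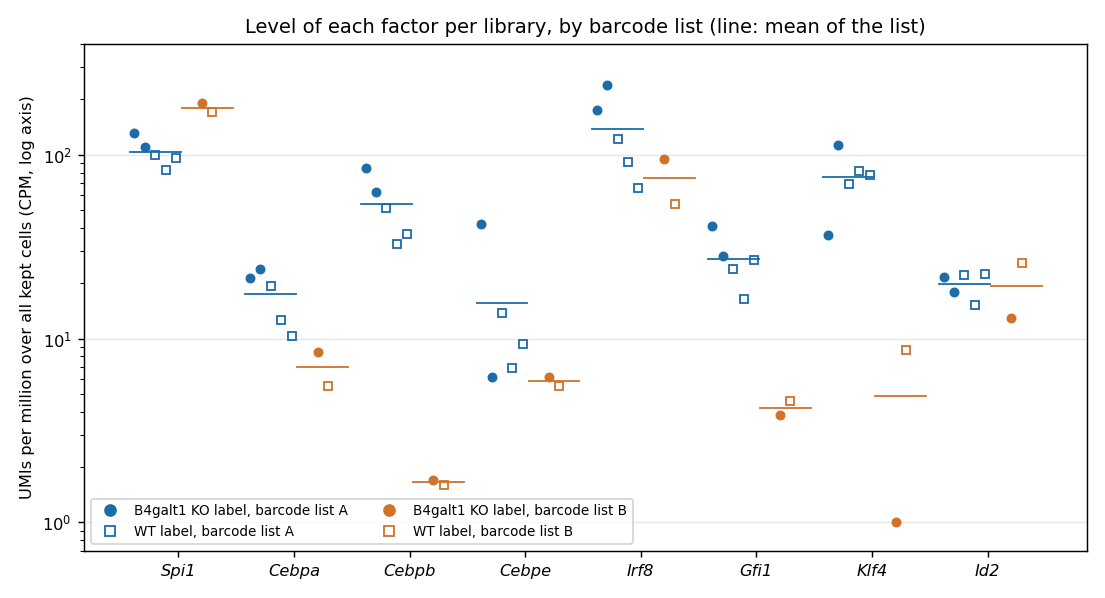
Level of each factor over all kept cells, 1 point per library, in CPM on a log axis; filled circles are knockout-labelled and open squares wild-type-labelled libraries, blue is barcode list A, orange list B, and lines are means of a list. Cebpb, Klf4, Gfi1 and Cebpa lie lower in list B and Spi1 higher, while Irf8, Cebpe and Id2 overlap.

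The GC content of the longest coding transcript (GENCODE, mm10) was 67.2% for Cebpb, 62.6% for Cebpa, 61.5% for Cebpe and 57.4% for Gfi1, against a median of 49.98% over the 86.2% of tested genes with such a transcript. It was 54.6% for Klf4 and 58.9% for Spi1, and its part in the difference between lists was not tested. By the same annotation Irf8 lies on chromosome 8 from 120736358 to 120756694 on the plus strand, Gfi1 on chromosome 5 from 107716657 to 107726036 on the minus strand, Spi1 on chromosome 2 from 91082390 to 91115756 on the plus strand and Id2 on chromosome 12 from 25093799 to 25097140 on the minus strand. Cebpa lies on chromosome 7 from 35119293 to 35121928 on the plus strand, Cebpb on chromosome 2 from 167688915 to 167690418 on the plus strand and Cebpe on chromosome 14 from 54710360 to 54712174 on the minus strand, and the first 2 of these have a single exon. The annotation places another gene on the opposite strand of 3 of them (Cebpa with Gm45091, Cebpb with Tmem189, Gfi1 with A430072P03Rik), and Irf8 overlaps Gm20388 on its own strand. Whether counting used the strand is not given in the sources used here, so reads of these pairs are uncertain.

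To follow the factors across cell states, cells of at least 3000 UMIs were thinned to 3000 UMIs each and assigned to the first of 12 marker gates they met, none of which uses any of the 8 genes. This was done for 23712 cells. The order was T, NK and innate lymphoid, MHC class II high, secondary granule, basophil and mast, megakaryocyte and erythroid. After these came monocyte, primary granule, lymphoid, early Mpo, stem and last Flt3. Stem-gated and Flt3-gated cells are thus those left after the lymphoid and early Mpo gates. Likewise the primary granule gate holds no cell that met the monocyte rule. The gates used here are stem (such genes as Hlf, Procr and Mecom), Flt3, early Mpo, primary granule (Elane, Prtn3, Ctsg, Ms4a3), secondary granule (Ltf, Camp, Ngp and others), monocyte (Csf1r, Ccr2, F13a1, Ms4a6c), lymphoid (Dntt, Il7r, Rag1, Ly6d) and MHC class II high. The erythroid (Gata1, Klf1 and others) and megakaryocyte (Pf4, Gp9 and others) gates are used as well. All gates are named for their genes and are not cell types proven by other means. The Flt3 gate asks for 1 Flt3 UMI and the lymphoid gate for 2 UMIs over its genes. Cells just at the minimum of their gate made up 48.4% of the Flt3, 32.8% of the early Mpo and 30.2% of the lymphoid gate. In the monocyte, stem and primary granule gates they made up 26.5%, 15.6% and 3.33%. Levels are CPM of the unthinned counts summed over the gated cells of a library, wherever a library held at least 20 such cells.

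Irf8 was the factor that rose most on leaving the stem gate. In stem-gated cells it stood at 19.9, 31.1, 14.9, 29.8, 20.9, 15.8 and 13.6 CPM (KO replicates 1 to 3, then WT replicates 1 to 4). In Flt3-gated cells it stood at 167, 182, 93.7, 117, 72.8, 74.8 and 40.1 CPM, in the same order, so that every library was higher than in its own stem gate. The log2 fold change of Flt3-gated over stem-gated cells, fitted with the library as a block, was 2.37 (adjusted p 8.94e-10 by edgeR, SE 0.25), a 5.16-fold rise, with 2.44 within list A and 2.19 within list B. Cebpa rose by 0.61 (adjusted p 0.00532 by edgeR, SE 0.18) from 9.32 ± 5.35 (SD, n = 7) to 11.3 ± 4.2 (SD, n = 7) CPM, but within list A alone the change was 0.26 (edgeR adjusted p 0.377) and within list B 1.17 (adjusted p 9.22e-05), and the call did not hold without KO replicate 3 (adjusted p 0.0656) or with gates on unthinned counts (adjusted p 0.301). Spi1 rose by 0.22 (adjusted p 0.040 by edgeR, SE 0.09), a small change past the threshold in 4 of 14 alternatives, and lost on leaving out any library but KO replicate 3 or WT replicate 4, with adjusted p up to 0.0983. The remaining 5 factors did not pass, with log2 fold changes from -0.13 (Cebpb) to 0.28 (Id2). Thus 3 of 8 factors were called, all higher, where 31% (16.2% higher and 14.8% lower) of the 12999 genes tested were called, a share near that of all genes.

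Cebpa rose further in the early Mpo gate, whose cells carry at least 3 UMIs of Mpo, the myeloperoxidase of primary granules. Its level was 23.9, 26.2, 11.1, 29.5, 16.6, 21.4 and 8.41 CPM against 11.2, 8.02, 8.53, 13.6, 18.7, 12.9 and 6.31 in the Flt3 gate, with a log2 fold change of 0.71 (adjusted p 0.00332 by edgeR, SE 0.17). It was higher in the early Mpo gate in all libraries but WT replicate 2. With gates on unthinned counts the change was -0.10 (edgeR adjusted p 0.97), so both call and direction depend on that choice, and list B alone gave 0.45 (adjusted p 0.167). Cebpe, at 1.81, 0, 1.15, 0, 0, 0.584 and 0.964 CPM in the Flt3 gate and 2.99, 1.85, 3.39, 0.484, 2.77, 1.07 and 1.05 in the early Mpo gate, had a log2 fold change of 1.43 (adjusted p 0.0384 by edgeR, SE 0.47). That change rests on 0 to 13 Cebpe UMIs per library in the Flt3 gate and 1 to 60 in the early Mpo gate, and the call did not hold without KO replicate 2 or 3 or WT replicate 2 or 3 (adjusted p up to 0.247). These were the 2 factors called of 8, against 11.1% (5.38% higher and 5.74% lower) of genes. Irf8 had a log2 fold change of 0.44 (edgeR adjusted p 0.225) and Gfi1 of -0.22 (adjusted p 0.439).

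The primary granule gate, whose cells express the serine proteases of promyelocyte granules, parted the factors. Only KO replicates 1, 2 and 3 and WT replicate 4 held 20 such cells, and levels are given in that order. Cebpe was at 94.1, 36.9, 93.6 and 174 CPM there, while no library exceeded 3.39 CPM in the early Mpo gate. Its log2 fold change was 5.64 (adjusted p 2.94e-22 by edgeR, SE 0.26). Gfi1 was at 80.6, 54.3, 16 and 23.6 CPM, in the list A pair first and the list B pair after, and rose by 2.11 (adjusted p 1.57e-15 by edgeR, SE 0.17), within list A by 1.94 and within list B by 2.63. Both factors of the neutrophil side therefore rose in either list in spite of the low level of Gfi1 in list B. Cebpb rose by 1.19 (adjusted p 1.25e-11 by edgeR, SE 0.13) to 109, 74.8, 2.93 and 6.34 CPM, Cebpa by 1.04 (adjusted p 6.00e-07 by edgeR, SE 0.17) to 30.6, 43.7, 26.4 and 20.4 CPM, and Spi1 by 0.38 (adjusted p 0.000918 by edgeR, SE 0.10) to 143, 142, 243 and 208 CPM. Klf4 fell, by 0.97 on the log2 scale (adjusted p 0.000809 by edgeR, SE 0.24), to 11.8, 54.3, 0.267 and 4.08 CPM. The call of Klf4 was lost without KO replicate 1 (adjusted p 0.0758), with gates on unthinned counts (adjusted p 0.0944) and in list B alone (-0.23, adjusted p 0.834), and that of Spi1 in list B alone (0.35, adjusted p 0.178). In total 5 factors rose and 1 fell, where 48.4% (22.7% higher and 25.7% lower) of genes were called. Irf8, at 85.9, 154, 147 and 116 CPM, had a log2 fold change of 0.08 (edgeR adjusted p 0.84), with -0.55 in list A (adjusted p 0.0609) and 0.61 in list B (adjusted p 0.206).

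The secondary granule gate had 20 cells or more in KO replicate 1, WT replicate 1 and WT replicate 3 alone (58, 20 and 25 cells), all of list A, and entered no contrast. There Cebpe reached 458, 656 and 478 CPM and Cebpb 211, 172 and 123 CPM. Each Cebpe value is above that of any library in any other gate, while Cebpb overlapped with the list A libraries of the monocyte gate (100.2 to 155 CPM). Irf8 was at 28.2, 11.1 and 3.86 CPM, the last 2 from 2 UMIs and 1 UMI, under the level that 3 counts would give, and Cebpa at 12.5, 5.56 and 3.86 CPM, the last 2 from 1 UMI each. Id2, which was at 12, 6.32, 6.93 and 14 CPM in the primary granule gate, stood at 179.8, 233 and 131 CPM. So Id2 in each of these libraries was above every library of the primary granule gate, and Irf8 in each was below every library of that gate.

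The monocyte gate had more Irf8 and Klf4, and less Cebpe and Gfi1, than the primary granule gate. Irf8 stood at 446, 515, 477, 619 and 529 CPM in KO replicates 1, 2 and 3 and WT replicates 1 and 4, above every library of the primary granule gate, and the log2 fold change of monocyte-gated over primary granule-gated cells was 1.94 (adjusted p 1.74e-06 by edgeR, SE 0.28), with 2.21 in list A and 1.83 in list B. Klf4 stood at 54.8, 109, 1.48, 125 and 28.3 CPM in the same libraries and rose by 1.79 (adjusted p 5.64e-07 by edgeR, SE 0.25). Its values in list B were far under those in list A, yet both lists gave a rise (log2 fold change 1.73 and 2.45). Cebpe fell to 8.86, 3.87, 7.08, 3.16 and 17 CPM, a log2 fold change of -3.67 (adjusted p 4.92e-15 by edgeR, SE 0.25), and Gfi1 to 18.8, 24.7, 2.66, 20.5 and 4.53 CPM, a log2 fold change of -2.02 (adjusted p 1.52e-11 by edgeR, SE 0.20). Cebpa was lower by a smaller amount, -0.61 (adjusted p 0.0165 by edgeR, SE 0.19), a call lost without KO replicate 1 or 2 (adjusted p 0.0719 and 0.0654), with DESeq2, in list B alone and with gates on unthinned counts (-0.05, adjusted p 0.969). Spi1 (-0.02, SE 0.10), Cebpb (0.13, SE 0.13) and Id2 (0.34, SE 0.31) did not pass. Thus 2 factors rose and 3 fell of 8, where 13.3% (7.19% higher and 6.15% lower) of genes were called. The calls of Irf8, Klf4, Cebpe and Gfi1 were kept in all 14 alternatives run, either list alone included.

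Against the early Mpo gate, the lymphoid gate had more Id2 and Klf4 and less of the C/EBP factors and Spi1. Id2 stood at 56, 25.5, 22.3, 26.1, 16.2, 26.6 and 28.8 CPM (KO replicates 1 to 3, WT replicates 1 to 4) against 15.1, 6.25, 10.2, 9.2, 9.69, 8.55 and 17.6, higher in the lymphoid gate in every library, with a log2 fold change of 1.19 (adjusted p 1.41e-05 by edgeR, SE 0.20). Within list A it was 1.62 and within list B 0.88 (adjusted p 0.13). Klf4 rose by 0.54 (adjusted p 0.0144 by edgeR, SE 0.17), a call lost without WT replicate 3 (adjusted p 0.0506), with DESeq2, with stricter gates and in list B alone (adjusted p up to 0.171). Cebpa was lower at 8.35 ± 4.14 (SD, n = 7) against 19.6 ± 7.85 (SD, n = 7) CPM, a log2 fold change of -1.17 (adjusted p 2.65e-07 by edgeR, SE 0.18). Cebpe (-2.36, adjusted p 0.000863 by edgeR, SE 0.54), Spi1 (-0.33, adjusted p 0.00284 by edgeR, SE 0.09) and Cebpb (-0.43, adjusted p 0.0153 by edgeR, SE 0.14) were lower too, that of Cebpb lost without KO replicate 1 or 2 or WT replicate 3 (adjusted p up to 0.0958). With gates on unthinned counts the calls of Cebpa (-0.31, adjusted p 0.339), Cebpe (adjusted p 0.294), Spi1 (-0.08, adjusted p 0.799), Cebpb (-0.12) and Id2 (adjusted p 0.0558) were lost, and in list B alone only that of Cebpa held. Irf8, a factor of B lymphoid cells too, was at 202 ± 85.2 (SD, n = 7) CPM against 133 ± 37.7 (SD, n = 7) and did not pass (0.56, adjusted p 0.0557 by edgeR, SE 0.21), while list A alone gave 0.56 (adjusted p 0.0293). In total 2 factors rose and 4 fell of 8, where 22.7% (11.4% higher and 11.3% lower) of genes were called.

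The MHC class II high gate, which takes antigen-presenting cells, held 20 cells in list B alone. Its 30 cells of KO replicate 3 and 94 of WT replicate 4 gave Irf8 at 707 and 509.7 CPM, Id2 at 506 and 319 CPM and Spi1 at 334 and 259.8 CPM. For Id2 and Spi1 these are the highest levels of any gate in list B, while Irf8 in WT replicate 4 was higher still in the monocyte gate. Spi1 UMIs were in 50.00% and 46.8% of thinned cells (unthinned 73.3% and 80.9%). A minority carried the other two: 16.7% and 26.6% of thinned cells had an Irf8 UMI (unthinned 26.7% and 29.8%) and 23.3% and 17% an Id2 UMI (unthinned 23.3% and 24.5%). The erythroid gate, filled in list B alone as well, had Irf8 at 7.91 and 3.02 CPM, Cebpa at 5.27 and 2.01 CPM and Spi1 at 73 and 26.8 CPM. In the megakaryocyte gate Irf8 was at 3.15 and 25.5 CPM and Spi1 at 56.2 and 97.1 CPM. Spi1 was lower in these 2 gates than in any other gate of list B.

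**Figure D2:**
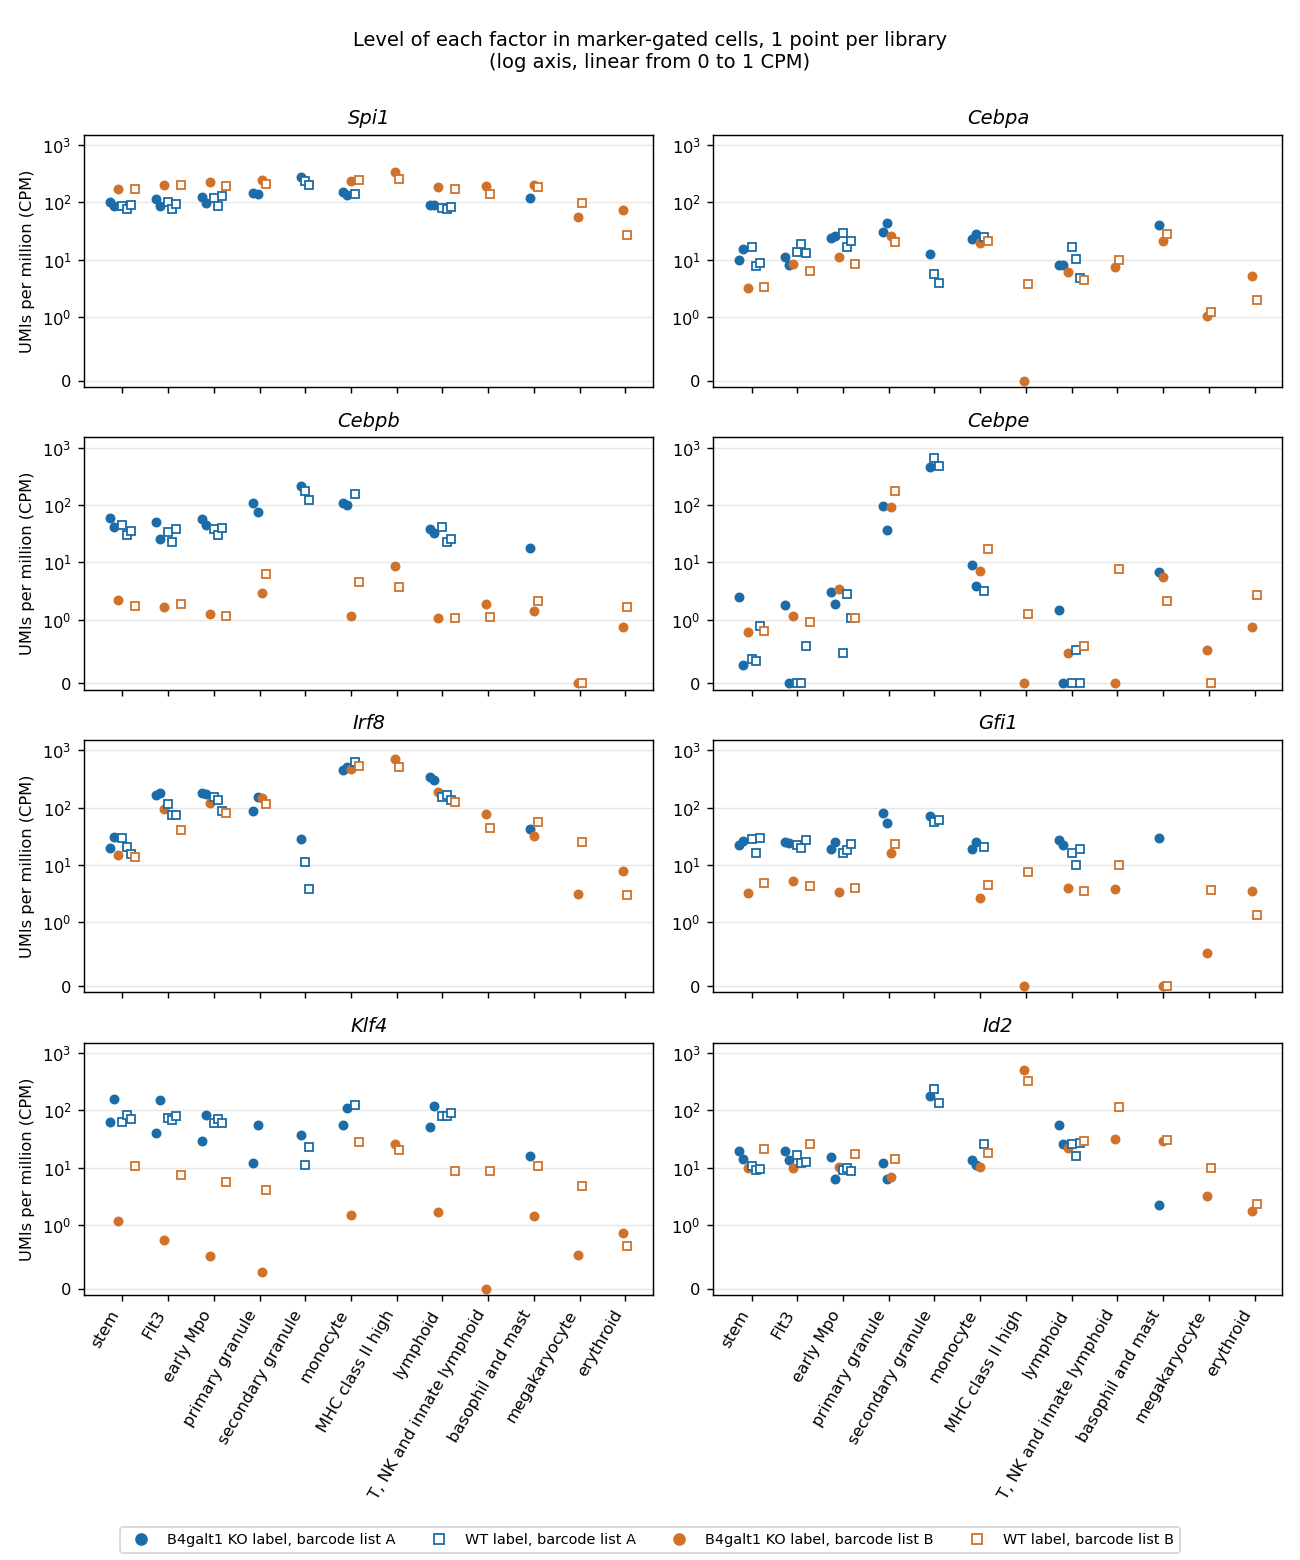
Level of the 8 factors by marker gate in CPM, on an axis that is logarithmic above 1 CPM and linear from 0 to 1 CPM, with 1 point per library that held at least 20 gated cells. Symbols are as in the plot by barcode list. Cebpe and Gfi1 peak in the granule gates, Irf8 in the monocyte and MHC class II high gates, and Cebpb, Klf4 and Gfi1 lie lower in list B in most gates.

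**Figure D3:**
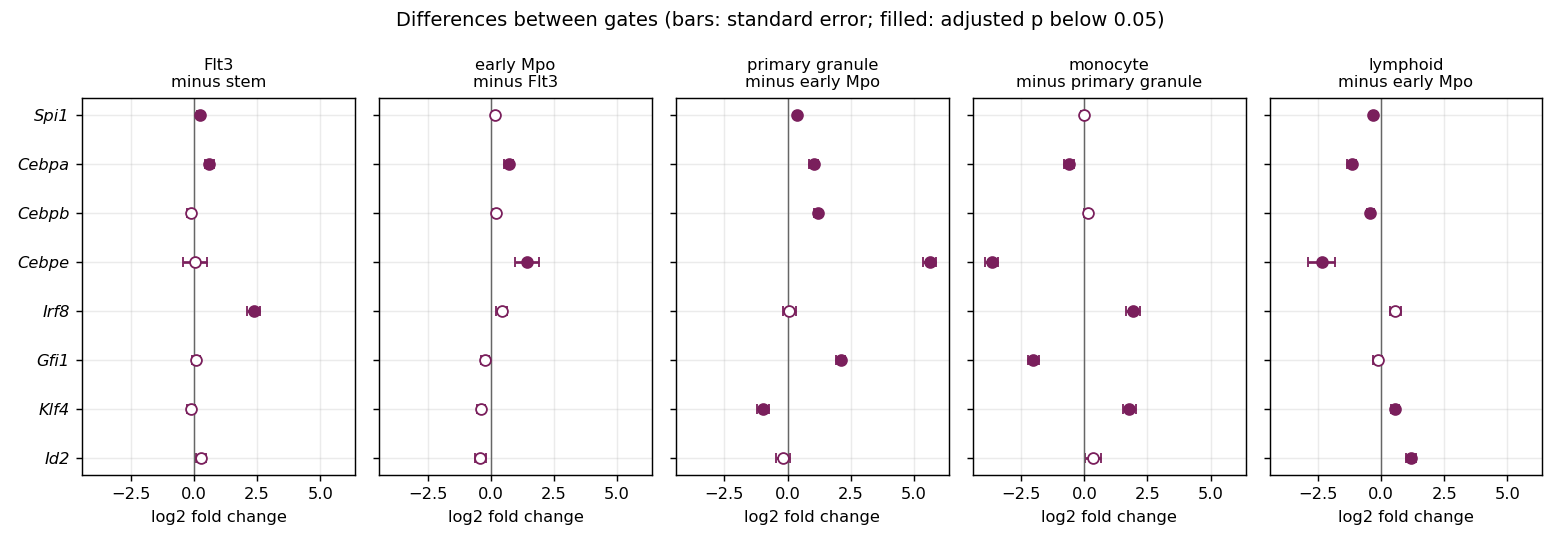
Log2 fold changes between gates for the 8 factors, with bars of 1 standard error, from a single edgeR fit of library by gate sums; filled points have an adjusted p below 0.05. From the primary granule to the monocyte gate, Irf8 and Klf4 rise while Cebpe and Gfi1 fall.

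Other genes of the same circuits were counted in the same contrasts, where all genes were called at the shares given above: 31% from the stem to the Flt3 gate, 48.4% (22.7% higher and 25.7% lower) in the primary granule against the early Mpo gate, 13.3% (7.19% higher and 6.15% lower) in the monocyte against the primary granule gate and 22.7% (11.4% higher and 11.3% lower) in the lymphoid against the early Mpo gate. Of the partner factors, a list of 12 regulators of stem and progenitor cells, 1 rose and 5 fell of 12 (median log2 fold change -0.23, all genes 0.00) from the stem to the Flt3 gate, with Gata2 at -1.14 and Ikzf1, a lymphoid regulator, at 0.46. From the early Mpo to the primary granule gate 1 rose and 9 fell of 12 (median log2 fold change -0.55, all genes -0.04). Myb rose by 0.63 (adjusted p 2.60e-07 by edgeR, SE 0.10) and Gata2, a stem and mast cell factor, had a log2 fold change of -1.34 (adjusted p 7.66e-11 by edgeR, SE 0.15). Of the other myeloid factors 2 rose and 17 fell of 24 (median log2 fold change -0.89, all genes -0.04) there. Those that rose were Cebpd, a further C/EBP gene, by 1.47 (adjusted p 7.38e-06 by edgeR, SE 0.26), and Zeb2, a zinc finger repressor, by 0.44 (adjusted p 0.0361 by edgeR, SE 0.17), and Nr4a1, an immediate early nuclear receptor, had -1.53 (adjusted p 6.51e-10 by edgeR, SE 0.18). In the monocyte against the primary granule gate 7 rose and 0 fell of 24 (median log2 fold change 0.63, all genes 0.00), with Irf5 at 1.36 and Rara, a retinoic acid receptor, at 1.57.

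Of the 5 Id and E protein genes, 1 rose and 4 fell of 5 (median log2 fold change -0.44, all genes -0.04) in the primary granule gate, where Id1 was the one that rose, by 0.91 (adjusted p 0.00372 by edgeR, SE 0.26), and Tcf4, an E protein, had -0.93 (adjusted p 1.59e-11 by edgeR, SE 0.10). In the lymphoid against the early Mpo gate Tcf4 (0.80) and Id3 (0.79) were higher and Id1 (-1.01) lower, so that Id2 and Id3 rose together with an E protein gene that their products bind. Of 9 cytokine receptors, 2 rose and 3 fell of 9 (median log2 fold change 0.06, all genes -0.04) in the primary granule gate and 3 rose and 2 fell of 9 (median log2 fold change 0.02, all genes 0.00) in the monocyte gate. Il6ra had 1.11 (adjusted p 8.74e-10 by edgeR, SE 0.13) in the latter. The others that rose there were Csf1r (1.75), which helps define the monocyte gate, and Flt3 (1.61), the gene of the Flt3 gate. Of 14 genes known as targets of these factors, some of which define the gates, 10 rose and 0 fell of 14 (median log2 fold change 2.47, all genes -0.04) in the primary granule gate. Among those 10 were Elane, Prtn3, Ctsg and Ms4a3, which define the primary granule gate, and Mpo, which defines the early Mpo gate. Outside the gate genes, Fcgr3, an Fc receptor, rose there by 4.26 (adjusted p 2.41e-15 by edgeR, SE 0.30), and Ly86, a partner of a Toll-like receptor homologue, was higher in the monocyte gate by 2.31 (adjusted p 8.95e-05 by edgeR, SE 0.42). Of the 4 macrophage genes only 1, Vcam1, was tested. It was higher in the primary granule than in the early Mpo gate by 7.18 (adjusted p 3.23e-21 by edgeR, SE 0.43). In the monocyte against the primary granule gate it had -6.66 (adjusted p 5.71e-15 by edgeR, SE 0.54), and its part was not tested.

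Co-detection was read in the thinned cells, where each cell has 3000 UMIs, so it finds only part of the RNA present. For each pair of factors the cells with a UMI of both were counted against the product of both single shares, taken within each library and summed. No test was made, since cells share their library. Over all gates, 1261 of 23712 cells carried both Spi1 and Irf8, the most of any pair, against 1141 by the product. The highest ratios were those of Cebpe: with Gfi1 there were 50 cells against 19.3 (ratio 2.59, above 1 in 7 and below 1 in 0 of 7 libraries), with Id2 46 cells against 19.6 (ratio 2.35, above 1 in 7 and below 1 in 0 of 7 libraries) and with Cebpb 83 cells against 40.1 (ratio 2.07, above 1 in 6 and below 1 in 1 of 7 libraries). The lowest were also those of Cebpe, now with the monocyte factors: with Klf4 there were 12 cells against 33.8 (ratio 0.355, above 1 in 1 and below 1 in 6 of 7 libraries) and with Irf8 27 cells against 61.3 (ratio 0.44, above 1 in 1 and below 1 in 6 of 7 libraries). Over all cells, Cebpe was thus found with Gfi1, Cebpb and Id2 above the product and with Irf8 and Klf4 below it. Of the 46 cells with Cebpe and Id2, 28 were among the 103 cells of the secondary granule gate in the 3 libraries that filled it. The product there was 24.1, a ratio of 1.16, so within that gate the excess was far smaller than over all cells.

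Because Cebpe and Irf8 peak in different gates, the ratio was also taken within the primary granule gate, where both were present. There 21.8%, 6.9%, 18.3% and 34.5% of thinned cells had a Cebpe UMI (KO replicates 1, 2 and 3, WT replicate 4) and 18.1%, 30.2%, 25.4% and 17.7% an Irf8 UMI. Unthinned, the shares were 61.1%, 31.9%, 46.2% and 75.2% for Cebpe, at medians of 15456.5 to 29239.5 UMIs per cell. In lymphoid-gated cells, which served as the background, a Cebpe UMI was found in 0 thinned cells in 6 of 7 libraries, which allows shares of up to 0.445% to 3.85%, and in 0.174% in WT replicate 4 (unthinned 0% to 1.67%, medians of 9004 to 13552 UMIs). Within the primary granule gate both genes together were in 12 of 894 cells against 36.8 by the product, a ratio of 0.326, below 1 in all 4 libraries. Cebpe with Gfi1 gave 33 cells against 24.6 (ratio 1.34, above 1 in 2 and below 1 in 2 of 4 libraries) there, so its excess over all cells was not seen in every library within the gate. Cebpb with Cebpe gave 42 cells against 32.4 (ratio 1.3, above 1 in 2 and below 1 in 2 of 4 libraries) and Spi1 with Irf8 73 cells against 71.9 (ratio 1.02, above 1 in 2 and below 1 in 2 of 4 libraries). In the monocyte gate, Irf8 with Klf4 gave 104 cells against 94.1 (ratio 1.11, above 1 in 5 and below 1 in 0 of 5 libraries), and 60.7% to 71.9% of thinned cells had an Irf8 UMI (90.4% to 94.7% unthinned) against 2.36% to 2.63% in the erythroid gate (5.26% to 7.09% unthinned). Over all cells, Irf8 with Id2 was above 1 in all 7 libraries (212 against 157, ratio 1.35).

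**Figure D4:**
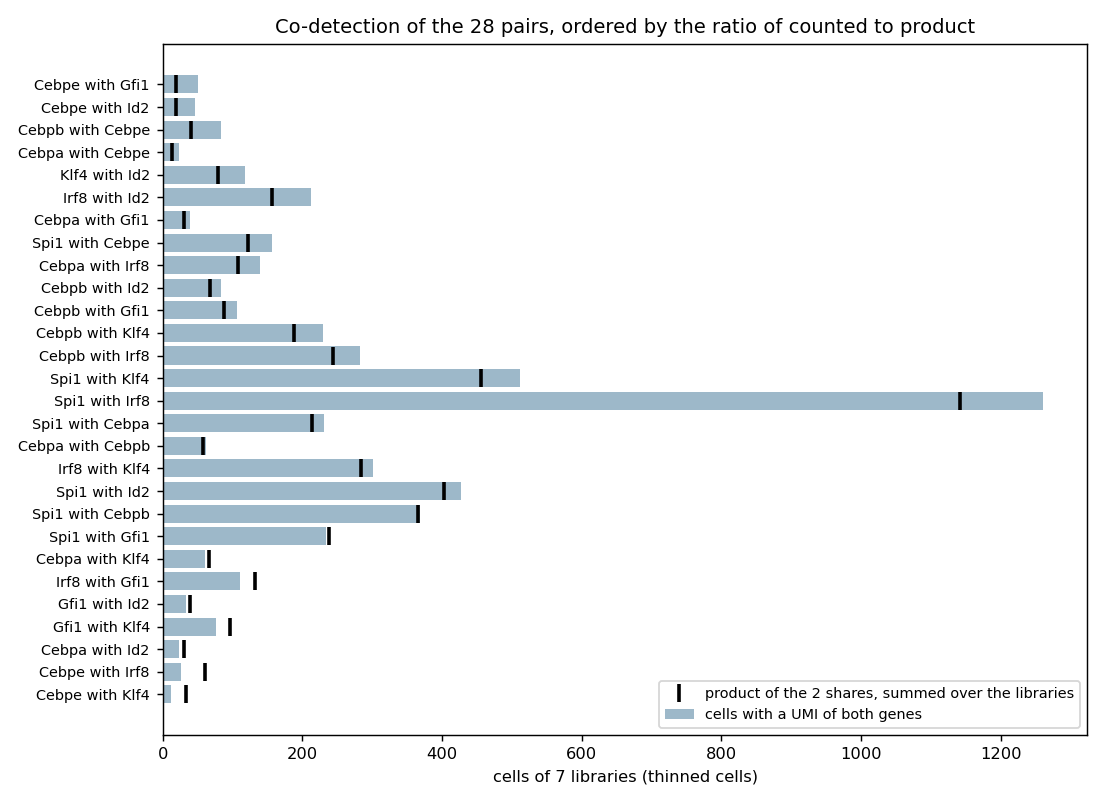
Thinned cells of all 7 libraries with a UMI of both genes of a pair (bars) and the number given by the product of the single shares within libraries (black ticks), for the 28 pairs ordered by the ratio of the former to the latter. Cebpe with Gfi1 is at the top with 50 cells and Cebpe with Klf4 at the bottom with 12.

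Between the labels, Irf8 was the only one of the 8 factors called over all kept cells. It stood at 175, 241 and 94.7 CPM under the knockout label, 170.0 ± 73.1 (SD, n = 3), and at 121, 90.8, 65.7 and 53.9 CPM under the wild-type label, 82.9 ± 29.9 (SD, n = 4). KO replicate 3 lay under WT replicate 1, so the groups overlapped, but within either list every knockout-labelled library was above every wild-type-labelled one. With the barcode list as a covariate the log2 fold change was 1.14 (adjusted p 0.0412 by edgeR, SE 0.22), a 2.21-fold difference, and 1.07% (0.462% higher and 0.607% lower) of 15149 genes were called. Without that covariate the log2 fold change was 1.13 with an edgeR adjusted p of 0.76, and 0 genes were called at all (697 at an unadjusted p below 0.05). The call of Irf8 was also lost without KO replicate 1, KO replicate 2, WT replicate 2 or WT replicate 3, with adjusted p from 0.0765 to 0.107. With the covariate, 3 of 4 red cell genes and 1 of 2 plasma cell genes were lower under the knockout label, with sums of 25.4 to 76.5 against 18.3 to 180.3 CPM and 0.29 to 11.4 against 1.16 to 44.1 CPM, and their part in the result was not tested. In sums over all cells, more cells with Irf8 RNA and more Irf8 RNA per cell cannot be told apart.

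No other factor was called over all kept cells in the same fit. Cebpa was at 21.4, 24 and 8.41 CPM in knockout-labelled and 19.4, 12.5, 10.4 and 5.52 in wild-type-labelled libraries, with a log2 fold change of 0.75 (adjusted p 0.114 by edgeR, SE 0.21). Cebpb, at 84.8, 62.7 and 1.7 against 51.5, 32.6, 36.8 and 1.6 CPM, had 0.78 (adjusted p 0.137 by edgeR, SE 0.24). Both overlapped between the labels, with the list B libraries lowest. Cebpa passed with DESeq2 (adjusted p 0.0354) and without the filter on low counts (edgeR adjusted p 0.0426). Spi1 had 0.41 (adjusted p 0.209 by edgeR, SE 0.16), Gfi1 0.48 (adjusted p 0.33 by edgeR, SE 0.25), Id2 -0.21 (adjusted p 0.672 by edgeR, SE 0.24) and Cebpe 1.07 (adjusted p 0.477 by edgeR, SE 0.73). KO replicate 1 held Cebpe at 42 CPM where the other libraries reached at most 13.8, and without it the log2 fold change was -0.28. Without the cells of the monocyte and granule gates, that of Gfi1 was 0.01. Klf4 had -0.66 (adjusted p 0.67 by edgeR, SE 0.73): it was at 36.5, 113 and 1.0 CPM under the knockout label and 69.4, 81.7, 77.5 and 8.72 under the wild-type label, so its highest and its lowest library both carry the knockout label. Within list A alone its log2 fold change was 0.03, and that of Id2 0.09. Klf4 lies on chromosome 4 (55527143 to 55532466, minus strand), 14.7 Mb from B4galt1, as annotated on mm10. Of the 8 factors 1 rose, with a median log2 fold change of 0.62 beside 0.01 over all genes.

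Irf8 was then compared within gates, so that shares of cells weigh less. In the lymphoid gate it stood at 343, 299 and 189.8 CPM under the knockout label and 155, 164, 135 and 126 under the wild-type label, with no overlap. That is 278 ± 79.1 (SD, n = 3) against 145 ± 18 (SD, n = 4), a log2 fold change of 0.94 (adjusted p 0.00169 by edgeR, SE 0.13). Of the 7 factors tested there it was the only one called, where 0.318% (0.227% higher and 0.0909% lower) of 11001 genes were called, and the only one whose groups did not overlap, which held for 2.51% of genes. The call held with each library left out and within list A (edgeR adjusted p 0.00412), and was lost without the covariate (log2 fold change 0.95, adjusted p 1.00) and with gates set on unthinned counts (0.42, adjusted p 0.574). In list B, with 1 library for each label, it was at 189.8 and 126 CPM.

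In the Flt3 gate Irf8 stood at 167, 182 and 93.7 CPM against 117, 72.8, 74.8 and 40.1. WT replicate 1 lay above KO replicate 3, so the groups overlapped, while within each list they did not. The log2 fold change was 1.08 (adjusted p 0.00636 by edgeR, SE 0.17), again the only call among 7 factors, where 0.371% (0.241% higher and 0.13% lower) of 10794 genes were called. It was lost without the covariate (adjusted p 1.00), within list A (adjusted p 0.0596) and without KO replicate 3 or WT replicate 4 (adjusted p 0.0741 and 0.0781), at log2 fold changes of 0.99 or 1.00. Of the red cell genes, Hbb-bt, a beta globin, was called higher under the knockout label in the Flt3 gate (1.59, adjusted p 0.00298 by edgeR), whereas red cell genes called over all kept cells were lower, and its part was not tested. In the early Mpo gate, with 177, 170.0 and 122 against 154, 136, 88.2 and 81.7 CPM, the log2 fold change was 0.52 (adjusted p 0.222 by edgeR, SE 0.15), past the threshold only without the filter on low counts (0.54, adjusted p 0.00945), and none of 8 factors was called, beside 0.47% (0.297% higher and 0.173% lower) of 12122 genes. In the stem gate, with 19.9, 31.1 and 14.9 against 29.8, 20.9, 15.8 and 13.6 CPM, it was 0.17 (adjusted p 1.00 by edgeR, SE 0.21) and none of 7 factors was called, beside 0.181% (0.108% higher and 0.0723% lower) of 13840 genes. Whether the difference between labels itself differs between the gates was not tested. The labels were tested only where every library held 20 cells, so the monocyte and primary granule gates were not tested. In the monocyte gate Irf8 stood at 446, 515 and 477 CPM under the knockout label and 619 and 529 under the wild-type label, where both wild-type-labelled libraries were above the 3 knockout-labelled ones.

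**Figure D5:**
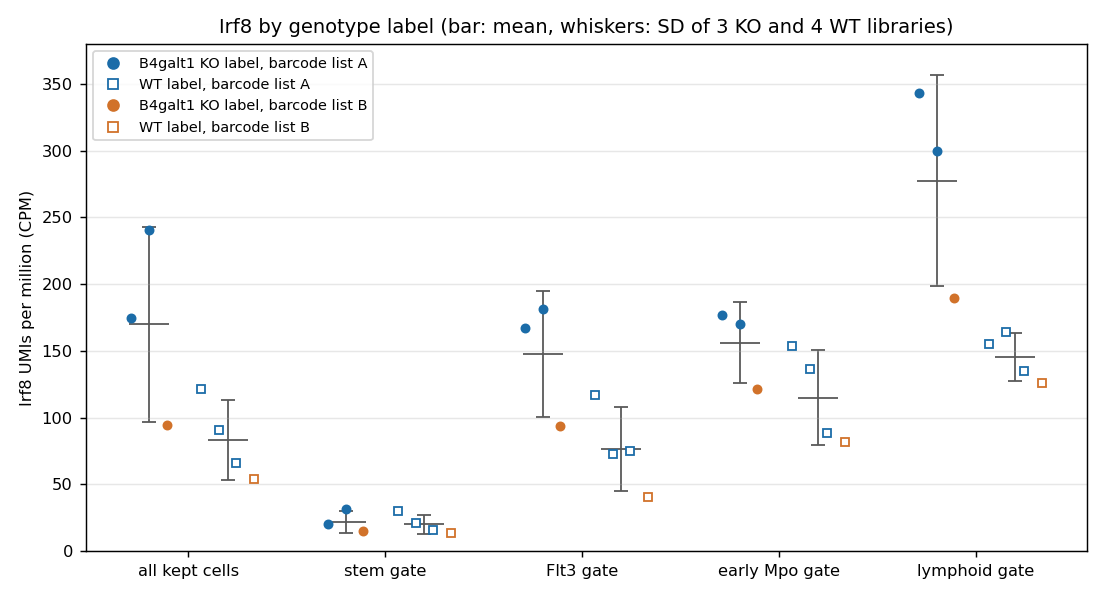
Irf8 in CPM over all kept cells and in the 4 gates with at least 20 cells in every library, by label; points are libraries, with symbols as in the plot by barcode list, and bars and whiskers are the mean and SD of 3 knockout-labelled and 4 wild-type-labelled libraries. The groups do not overlap in the lymphoid gate and lie together in the stem gate.

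Some granule and monocyte genes were called in the same comparisons, and others were not. Prtn3, a granule protease, was higher under the knockout label by 1.12 (adjusted p 0.0154 by edgeR, SE 0.17) in the stem gate, where Irf8 was not called, by 1.39 (adjusted p 0.000223 by edgeR, SE 0.16) in the Flt3 gate and by 1.83 (adjusted p 7.96e-05 by edgeR, SE 0.16) in the lymphoid gate. Csf1r, the receptor of M-CSF, was higher by 1.69 (adjusted p 0.000704 by edgeR, SE 0.22) in the lymphoid gate and by 1.85 (adjusted p 0.014 by edgeR, SE 0.25) over all kept cells, and Ly86 by 1.21 (adjusted p 0.0148 by edgeR, SE 0.21) in the lymphoid and 1.63 (adjusted p 0.00613 by edgeR, SE 0.26) in the Flt3 gate. Csf1r in the Flt3 gate had 1.27 (adjusted p 0.279 by edgeR, SE 0.36). Over all kept cells Prtn3 had 2.33 (adjusted p 0.112 by edgeR, SE 0.56), Ctsg 2.47 (adjusted p 0.156 by edgeR, SE 0.69) and Elane 2.41 (adjusted p 0.332 by edgeR, SE 1.14), none of which passed, and Elane and Mpo passed in none of the stem, Flt3 and lymphoid gates. On average the knockout-labelled libraries also held more cells of the primary granule gate (8.91% ± 7.29 against 1.15% ± 0.598) and of the monocyte gate (11% ± 7.9 against 1.37% ± 0.97, SD, n = 3 and n = 4). The labels overlapped in the monocyte gate, where KO replicate 3 (2.32%) lay under WT replicate 1 (2.73%). That difference did not pass (exact permutation p 0.0571, adjusted 0.186), and was 13.7 percentage points in list A against 1.72 in list B. Without the cells of the monocyte, primary granule and secondary granule gates, an alternative added after the values were seen, the log2 fold change of Irf8 over the remaining cells was 0.78 (edgeR adjusted p 0.051). Those cells still differed between the labels in their shares of the stem, early Mpo and lymphoid gates, given below. Under the knockout label the mean share was higher for the early Mpo gate and lower for the stem and lymphoid gates. The part of these shares was not tested. In the lymphoid gate, cells without a UMI of Mpo or Elane numbered 55 of 120, 40 of 78 and 211 of 674 under the knockout label and 83 of 158, 56 of 135, 92 of 193 and 466 of 1147 under the wild-type label. Over those cells alone, also added later, the log2 fold change was 0.93 (adjusted p 0.325 by edgeR, SE 0.25), of like size and not called. Of the 14 target genes, 2 of 9 tested were called higher in the lymphoid gate, where 0.227% of all genes were, with a median log2 fold change of 0.92. Whether these genes and Irf8 rose in the same cells was not tested.

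Other regulators were not called beside Irf8. Of 12 partner factors, 24 other myeloid factors and 5 Id and E protein genes, 0 were called over all kept cells by edgeR. At an unadjusted p below 0.05 there were 1, 6 and 0, beside 2861 of all 15149 genes tested in that fit. The list medians were -0.15, -0.18 and -0.28. Of 9 cytokine receptors, Csf1r and Csf2rb, the shared beta chain of the GM-CSF and IL-3 receptors (1.17, adjusted p 0.0288 by edgeR, SE 0.19), were called, with a median of 0.47. Of 14 target genes Mpo alone was called (1.83, adjusted p 0.0412 by edgeR, SE 0.34), with a median of 1.56. In the early Mpo gate 4 of 13 target genes tested were called, all higher: Prtn3, Elane, Ctsg and Ms4a3, with log2 fold changes of 1.30, 1.80, 1.01 and 2.12.

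Shares of cells with a UMI were compared between labels with exact permutation, two-sided, of all 35 splits of 7 libraries, which cannot give a p below 0.0286. None of the 8 factors and none of the 28 pairs passed after Benjamini-Hochberg adjustment within each family, and at an unadjusted p below 0.05 there were 0 factors and 1 pair. A lone factor or pair at the smallest possible p could not pass that adjustment. That none passed therefore says little about whether the labels differ. Irf8 was detected in 21.2%, 26.7% and 14% of thinned cells under the knockout label and 17%, 13.8%, 10.03% and 9.28% under the wild-type label (unthinned 43%, 45.4% and 29.9% and 34.4%, 29.4%, 24.8% and 21.4%), where the exact p was 0.114, adjusted 0.914. The pair was Spi1 with Irf8, found together in 7.23%, 8.7% and 6.24% of cells against 4.52%, 4.28%, 2.13% and 4.11%, without overlap. Its means were 7.39% ± 1.24 and 3.76% ± 1.1 (SD, n = 3 and n = 4), and exact permutation gave p 0.0286, adjusted 0.80. Set against the product of the single shares, the ratio was 1.1, 1.19 and 1.07 under the knockout label and 1.08, 1.45, 0.875 and 1.12 under the wild-type label, so the 2 labels overlapped once the single shares were taken into account. Of the 13 gate shares, 0 passed (exact permutation, adjusted), with the lymphoid gate at 6.32% ± 3.13 against 13.1% ± 0.391 and the primary granule gate at values given above, each with exact p 0.0286, adjusted 0.186. The widest difference was in the stem gate, at 34.2% ± 2.18 against 52.4% ± 6.96 without overlap (exact permutation p 0.0571, adjusted 0.186). Early Mpo was at 18.4% ± 5.32 against 11.1% ± 2.44 (exact permutation p 0.0857, adjusted 0.223). Here too a lone gate at the smallest p could not pass. Cells were sorted on Sca-1 and cKit, which can set these shares.

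For each factor the 3 genes of most similar pattern were sought over the 58 library by gate sums, as the Pearson correlation of log2(CPM + 1) with 6998 genes of at least 20 CPM on average, gate genes and the 8 factors left out. The sums share libraries, barcode lists and depth, so these are descriptions without a test. Irf8 was most like Ly86 (0.887), Emb (0.825) and Mpeg1 (0.799), and Cebpe like Wfdc21 (0.931), Trem3 (0.918) and Fcnb (0.905), of which Fcnb encodes a ficolin of neutrophil granules. Spi1 was most like Arpc1b (0.918), Napsa (0.903) and Coro1a (0.881), and Cebpa like Rab44 (0.828), Gng12 (0.795) and Calr (0.764). For Cebpb the genes were Fam49b (0.963), Rab21 (0.95) and Vapa (0.948), for Gfi1 Tmem165 (0.875), Ogfrl1 (0.865) and Man2a1 (0.861) and for Klf4 Fosb (0.924), Tnks (0.92) and Klf2 (0.915). For Id2 they were Cd52 (0.82), Sp140 (0.749) and Gpsm3 (0.701). When each library's mean over the gates that all libraries hold was subtracted, an alternative added later, none of the 3 genes of Cebpb, Gfi1 or Klf4 remained: the first became Clec4a2, S100a8 and Tpd52. Spi1 had the same 3 genes either way, and Irf8 and Cebpe kept Ly86 and Wfdc21 in first place.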

How the data were processed

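The members and gene lists were chosen with earlier results of these data known. The values are UMI counts per gene and cell, deposited by the authors as filtered matrices. Cell Ranger 7.0.0, Seurat 4.4.0 and mm10 are named in the submitters' processing notes, and the steps between reads and counts are not given in the sources used here. Cells were kept, thinned to 3000 UMIs and gated as described (Python 3.11.15). A doublet caller marked 0 to 5 cells per library and had not worked, so doublets remain. Counts were summed per library, or per library and gate with at least 20 cells, and tested with edgeR 4.0.16 (quasi-likelihood, TMM, filter on low counts, Benjamini-Hochberg adjusted p below 0.05). The label test had the barcode list as covariate, and gate contrasts had the library as block. DESeq2 1.42.0 was an alternative. On simulated counts, 86% and 98% of 200 genes changed by a log2 fold change of 1 and 2 were recovered in the label test over all kept cells. In the contrast of the monocyte with the primary granule gate, 73% and 93.5% were recovered. The simulated libraries shared a common mean profile and a fixed dispersion, with no barcode list effect. These shares therefore do not give the power of the fits on the real counts. The text describes all 8 members, names other genes from the lists and, for likeness, the 3 genes with the highest correlation. Intervals for counts of 0 cover counting error only.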

Additional observations from a re-analysis of the deposited data

Results flagged for a closer look

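In 7 of 36 groups of 4 wild-type-labelled libraries, 1 library lay apart by Dixon's criterion at the 95% level, where chance gives about 1 in 20. In each it was WT replicate 4, the only wild-type-labelled library of barcode list B. Klf4 was lowest there, at 8.72 CPM over all kept cells, 7.57 CPM in the Flt3 gate and 8.88 CPM in the lymphoid gate. Spi1 was highest there, at 172 CPM in the stem gate and 172 CPM in the lymphoid gate. Id2 was highest there too, at 21.1 CPM in the stem gate and 17.6 CPM in the early Mpo gate. In the knockout-labelled group of 3, to which the criterion was not applied, the list B library had the lowest Klf4, the highest Spi1 and, unlike WT replicate 4, the lowest Id2 over all kept cells.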

How the results depend on the processing

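Of the alternatives run for single factors, 426 kept direction and call, 62 lost the call, 7 gained one and 12 changed sign. Genes called between labels numbered 162 over all kept cells, 25 in the stem, 40 in the Flt3, 57 in the early Mpo and 35 in the lymphoid gate. Without the barcode list covariate each of these was 0 (697, 163, 107, 183 and 127 at an unadjusted p below 0.05, edgeR). DESeq2 called 864 genes over all kept cells, 78 in the stem, 96 in the early Mpo and 56 in the lymphoid gate. Without the filter on low counts there were 547, 268, 136, 250 and 177. List A alone gave 362 over all kept cells, and 92 were called without the monocyte and granule gates. Stricter gates gave 12, 74, 5 and 18 in the stem, Flt3, early Mpo and lymphoid gates, and gates on unthinned counts 22 and 19 in the last 2. The Flt3 gate on unthinned counts was not run, since too few libraries held 20 cells. Without lymphoid cells with a Mpo or Elane UMI there were 10, and 0 when the covariate was dropped too.

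Leaving out 1 library gave 16 to 363 genes over all kept cells, with 16 without WT replicate 3, 51 without WT replicate 1, 68 without WT replicate 2, 91 without KO replicate 1, 354 without WT replicate 4 and 363 without KO replicate 3. The ranges were 6 to 79 in the stem (lowest without WT replicate 1, highest without KO replicate 2), 22 to 64 in the Flt3 (same libraries), 36 to 106 in the early Mpo (WT replicate 2, KO replicate 2) and 22 to 40 in the lymphoid gate (lowest without WT replicate 3). The contrasts called 4031 genes (Flt3 against stem), 1445 (early Mpo against Flt3), 6296 (primary granule), 1734 (monocyte) and 2952 (lymphoid). In that order, leaving out 1 library gave 3426 to 3819, 913 to 1368 (lowest without WT replicate 4), 4309 to 6236, 913 to 1678 (lowest without KO replicate 1) and 2476 to 2655. Gates on unthinned counts gave 443, 516, 2447, 752 and 1614, and list B alone 1390, 437, 3448, 349 and 1200. List A alone gave 654 for early Mpo against Flt3, and stricter gates 6054 there and 4922 for lymphoid. For detection, co-detection and gate shares the count was 0 without any single library, but 6 libraries allow no exact p under the threshold, so that says nothing about stability.

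Signs changed only for differences that were not called, apart from Cebpa in early Mpo against Flt3, at -0.10 with gates on unthinned counts. Over all kept cells Cebpe ran from -0.28 (without KO replicate 1) to 1.497 with 1 library left out. Klf4 ran from -1.58 (without KO replicate 2) to 0.036 (without KO replicate 3), and was 0.034 in list A alone. Id2 ran from -0.47 (without KO replicate 1) to 0.11 (without KO replicate 3 or WT replicate 4), and was 0.093 in list A alone. Irf8 in the stem gate ran from -0.028 (without KO replicate 2) to 0.33 (without WT replicate 1), and was -0.0006 with stricter gates. The causes were not tested.

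Deviations of same-numbered libraries from their label means had correlations of 0.507 and 0.697 for numbers 1 and 2 and -0.347 for number 3. The barcode list was not removed first, and number 3 joins a list B with a list A library. These correlations therefore cannot tell whether the numbers are pairs, and the main fits did not take them as pairs. With a replicate block, 2699 genes were called over all kept cells and 328, 125, 203 and 84 in the stem, Flt3, early Mpo and lymphoid gates. In that fit WT replicate 4 has no partner, and the list term takes up KO replicate 3 against WT replicate 3. The label therefore rests on replicates 1 and 2 of list A, with few degrees of freedom left, and list B adds nothing to it. Under the block Spi1 (0.53, edgeR adjusted p 0.00198), Cebpa (0.64, adjusted p 0.0131), Cebpb (0.95, adjusted p 1.68e-07) and Gfi1 (0.89, adjusted p 9.68e-06) were called over all kept cells, Irf8 stayed called there and in the Flt3 and lymphoid gates, and Id2 over all kept cells was 0.22 and Irf8 in the stem gate -0.025.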
